A study of Mus musculus with 12 samples.

Results

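The genes described here carry out the oxidation of fatty acids in mitochondria and peroxisomes, use ketone bodies, and build peroxisomes. They were chosen from a list of 41 names, which stand for 39 genes, plus every gene on the array whose symbol starts with Pex and a digit, which added 16 peroxins. Of these 55 genes, 54 had a probe on the array and 47 had a probe detected above background on at least 4 of the 12 arrays, out of 10967 genes tested in the series. The 55 genes comprised 19 mitochondrial enzymes of β-oxidation and their electron carriers, 3 ketone body enzymes, 13 enzymes of peroxisomes or of both organelles, 4 acyl-CoA synthetases and the 16 peroxins.

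RNA came from ileum tumours of FVB/N mice aged 3 to 4 months and was hybridised to Illumina bead arrays, with 1 array per sample. The 6 arrays numbered 7 to 12 carried the genotype iPGC-1β/APCmin and the 6 numbered 1 to 6 carried FVBN/APCmin, so both groups carry the Min allele of Apc, a truncated tumour suppressor that gives intestinal adenomas. By its name, iPGC-1β stands for added PGC-1β in the intestine, but the labels describe neither the construct, its promoter nor the number of lines. They also do not say that the tumours came from separate animals, so all p-values measure the spread between these samples. Levels are log2 intensities after background correction and quantile normalization, and each difference is iPGC-1β/APCmin minus FVBN/APCmin on that scale, with its standard error (SE) and n = 6 arrays per group. A gene counts as risen or fallen where limma's Benjamini-Hochberg adjusted p over all 10967 genes was below 0.05.

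Ppargc1b, the gene for PGC-1β, averaged 7.86 ± 0.44 in iPGC-1β/APCmin and 8.41 ± 0.65 in FVBN/APCmin (SD, n = 6 each), a difference of -0.55 (SE 0.30, limma adjusted p 0.296). Its probe thus gave no higher level in the arrays labelled iPGC-1β/APCmin, and the labels do not say whether this probe can detect the added transcript. Groups are named here as labelled.

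In mitochondrial β-oxidation, long fatty acids are activated to acyl-CoA, carried through the inner membrane as carnitine esters and shortened in repeated rounds of dehydrogenation, hydration, dehydrogenation and thiolysis. The acyl-CoA dehydrogenases hand their electrons to the electron transfer flavoprotein and its dehydrogenase, which feed the ubiquinone pool. Peroxisomes shorten very long and branched chains with an oxidase that passes its electrons to oxygen, and peroxins import the enzymes. Outside the liver, ketone bodies are turned back into acetyl-CoA in mitochondria. In enterocytes these routes burn part of the fatty acids taken up from the diet and the blood. PGC-1β is a coactivator that works with the estrogen-related receptors (ERR) and the peroxisome proliferator-activated receptors (PPAR), under whose control many of these genes stand.

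The promoters of the 4 genes that rose and of Etfa are shown because estrogen-related receptors and PPARs bind variants of the letters AGGTCA. Each line gives the 150 bases before a RefSeq start site on build GRCm38.p6, 5′ to 3′ on the gene's strand, in lower case. Capitals mark AGGTCA in Acadvl and Echs1, and in Etfa the opposite-strand form of a DR1 element, a pair of AGGTCA copies spaced by 1 base. The stretches lie at chr11:70015429-70015578 (minus strand) for Acadvl, chr7:140116422-140116571 (minus) for Echs1, chr3:79628768-79628917 (minus) for Etfdh, chr16:31422147-31422296 and chr16:31428603-31428752 (plus) for Bdh1, and chr9:55512244-55512393 (minus) for Etfa.
Acadvl: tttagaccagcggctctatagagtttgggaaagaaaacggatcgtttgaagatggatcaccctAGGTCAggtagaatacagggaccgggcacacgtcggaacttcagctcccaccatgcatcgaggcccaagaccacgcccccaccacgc
Echs1: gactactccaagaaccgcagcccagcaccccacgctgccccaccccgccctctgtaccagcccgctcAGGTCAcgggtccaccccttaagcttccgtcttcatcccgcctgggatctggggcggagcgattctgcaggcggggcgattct
Etfdh: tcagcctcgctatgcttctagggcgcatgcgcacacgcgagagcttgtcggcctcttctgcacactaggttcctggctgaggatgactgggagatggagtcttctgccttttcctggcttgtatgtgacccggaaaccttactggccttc
Bdh1, first start site: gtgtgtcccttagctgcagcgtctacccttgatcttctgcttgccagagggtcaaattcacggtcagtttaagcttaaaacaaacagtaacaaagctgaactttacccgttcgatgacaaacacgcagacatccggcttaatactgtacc
Bdh1, second start site: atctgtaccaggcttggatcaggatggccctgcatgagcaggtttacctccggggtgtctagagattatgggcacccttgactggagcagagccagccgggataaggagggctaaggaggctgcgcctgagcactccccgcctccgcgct
Etfa: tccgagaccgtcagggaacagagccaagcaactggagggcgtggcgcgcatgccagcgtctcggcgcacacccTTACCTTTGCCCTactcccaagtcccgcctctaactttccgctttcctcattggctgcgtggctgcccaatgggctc

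Of the 55 genes, 42 matched a RefSeq promoter of 300 bases, with 250 bases before and 50 after the start site. The ERR element TCAAGGTCA, searched on both strands, was found in 0 of these 42 genes and in 126 of 27025 genes of the whole promoter table (0.466%). Its looser form TNAAGGTCA was found in 0 of 42 genes and in 387 of 27025 (1.43%). The DR1 element, with up to 1 letter changed in each copy, was found in 1 of 42 genes (2.38%), Etfa, and in 754 of 27025 (2.79%). The single copy AGGTCA, which the ERR forms contain and which was searched after the sequences had been seen, was found in 7 of 42 genes (16.7%) and in 4900 of 27025 (18.1%). The shares in the 42 genes were thus close to or below those of all promoters, and 2 of the 4 genes that rose, Etfdh and Bdh1, held none of these letters in the window. A match is a description of the letters and not of binding.

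Median raw intensity per array was 145.6 to 170.5 in iPGC-1β/APCmin and 139.3 to 167.9 in FVBN/APCmin, and 12858 to 14445 of 25697 probes were detected per array. All 10967 genes had a median difference of -0.01. Enterocyte genes such as Vil1, Sis and Apoa1 and the ileal bile acid binding protein Fabp6 were detected, while the ileal bile acid transporter Slc10a2 had no detected probe. Array 7 of iPGC-1β/APCmin and array 6 of FVBN/APCmin stood apart from their groups in lymphocyte markers. The lymphocyte level averages the mean centred log2 level of 14 T and NK cell genes and that of 10 B and plasma cell genes. It was 1.81 on array 7 and -2.04 to -1.13 on the other iPGC-1β/APCmin arrays. In FVBN/APCmin it was -0.83 on array 6 and 1.32 to 1.62 on the other arrays. Over all genes tested, array 7 correlated more closely with the FVBN/APCmin arrays (r of 0.906 to 0.971) than with the other iPGC-1β/APCmin arrays (r of 0.852 to 0.892), while array 6 correlated with the iPGC-1β/APCmin arrays at 0.906 to 0.953 and with the other FVBN/APCmin arrays at 0.92 to 0.951. Results that turn on these 2 arrays are given with and without them. The 2 arrays were picked for lymphocyte levels nearer the other group in these same data, so leaving them out is no independent test.

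Among the 47 genes tested, 4 rose and 0 fell in iPGC-1β/APCmin tumours: Acadvl, Etfdh, Echs1 and Bdh1. They all act in mitochondria. Over all genes tested 378 passed the same threshold (3.45%), 243 higher (2.22%) and 135 lower (1.23%). At an unadjusted p below 0.05 there were 11 of the 47 genes, against 2557 of all 10967, about the same share. Differences were above 0 for 35 of the 47 genes and below 0 for 12, with a median of 0.23 and a range of -0.81 to 1.22, while 5325 of all 10967 genes lay above 0 (48.6%). In a tumour sample a higher level cannot be told apart from a larger share of cells that hold the RNA.

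**Figure D1:**
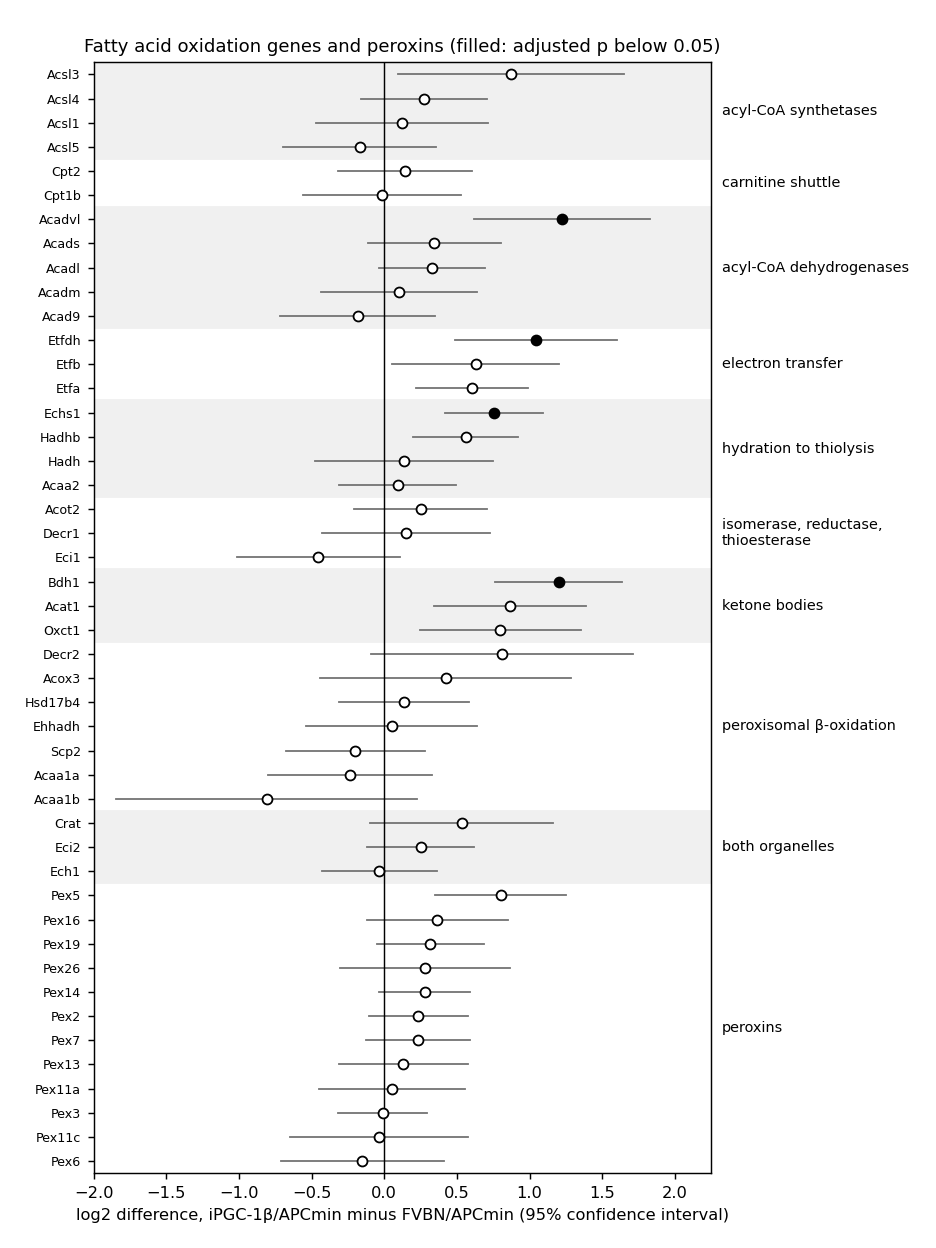
Difference in log2 level between iPGC-1β/APCmin and FVBN/APCmin tumours for 46 of the 47 genes tested, grouped by role, with 95% confidence intervals; filled points passed an adjusted p of 0.05. The filled points are Acadvl, Etfdh, Echs1 and Bdh1, and the peroxisomal enzymes lie on both sides of 0 from -0.81 to 0.81.

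The 4 acyl-CoA synthetases tested, which activate fatty acids before oxidation or esterification, differed by -0.17 to 0.87, with 3 higher, 1 lower and 0 past the limma threshold (1 at an unadjusted p below 0.05). Acsl3, an enzyme of the endoplasmic reticulum and lipid droplets, had 8.69, 10.06, 10.63, 9.85, 9.00 and 10.24 on arrays 7 to 12 of iPGC-1β/APCmin, against 8.73, 8.54, 9.11, 8.26, 8.55 and 10.07 on arrays 1 to 6 of FVBN/APCmin. Array 7 was the lowest of its group and array 6 the highest of its own, and the groups overlapped. The difference was 0.87 (SE 0.36, limma adjusted p 0.169). Without arrays 6 and 7 it was 1.32 with a limma adjusted p of 0.00561, and in a fit with a term for the lymphocyte markers it was -0.16 with a limma adjusted p of 0.933. Acsl5, an abundant synthetase of intestinal epithelium, differed by -0.17 (adjusted p 0.724), Acsl1 by 0.12 (0.833) and Acsl4 by 0.28 (0.441).

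The carnitine shuttle did not pass the threshold with either of its genes tested. Cpt2, the inner membrane carnitine palmitoyltransferase, had 11.51, 11.89, 10.89, 11.06, 11.79 and 10.72 in iPGC-1β/APCmin, against 11.05, 10.90, 11.14, 11.51, 11.01 and 11.37 in FVBN/APCmin. The iPGC-1β/APCmin arrays lay on both sides of the others, and the difference was 0.14 (SE 0.22, limma adjusted p 0.733, 95% interval -0.32 to 0.61). Cpt1b, an isoform of the gatekeeping outer membrane enzyme known from muscle, differed by -0.01 (adjusted p 0.978). Cpt1a, the isoform known from liver and intestine, was detected on 1 of 12 arrays and was not tested.

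The dehydrogenases that open each round of β-oxidation are divided by chain length, and the very-long-chain enzyme Acadvl rose. Acadvl had 12.61, 13.34, 11.42, 12.05, 12.69 and 11.83 in iPGC-1β/APCmin, against 10.66, 11.34, 11.12, 11.42, 10.81 and 11.24 in FVBN/APCmin. The lowest of the iPGC-1β/APCmin arrays, array 9, lay at the level of the highest of the others, array 4. The difference was 1.22 (SE 0.28), or 2.33-fold, with a limma adjusted p of 0.0344 and an exact two-sided permutation p of 0.00433. Leaving out 1 array at a time gave differences of 1.02 to 1.40, and Acadvl passed the threshold in 5 of these 12 fits. It did not pass without array 10 or 11 of iPGC-1β/APCmin (limma adjusted p 0.0558 and 0.0761) or without array 1, 2, 3, 4 or 5 of FVBN/APCmin (0.0829, 0.0603, 0.0753, 0.0554 and 0.084). The difference was 1.19 without arrays 6 and 7 (adjusted p 0.0208), and 1.33 in a fit with a term for the lymphocyte markers, where it did not pass (adjusted p 0.231).

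The other dehydrogenases, ordered by chain length, did not pass. Acadl, for long chains, ranged from 9.25 to 9.91 in iPGC-1β/APCmin and from 9.02 to 9.72 in FVBN/APCmin, a difference of 0.33 (limma adjusted p 0.264). Acadm, for medium chains, ranged from 12.23 to 13.79 in iPGC-1β/APCmin and from 12.69 to 13.01 in FVBN/APCmin, a difference of 0.10 (adjusted p 0.847). Acadm was above every FVBN/APCmin array on arrays 7 and 8 only, and below every one of them on arrays 9, 10 and 12. Acads, for short chains, differed by 0.34 (adjusted p 0.354), and Acad9, an enzyme also needed to assemble complex I, by -0.18 (adjusted p 0.708). Whether the difference of Acadvl exceeded those of its relatives was not tested.

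Of the 3 genes of the electron transfer chain from the dehydrogenases to ubiquinone, 1, Etfdh, rose by the adjusted threshold. All 3 were higher at an unadjusted p below 0.05, which 2557 of all 10967 genes met in either direction. Etfdh, the flavoprotein dehydrogenase of the inner membrane, had 11.74, 12.01, 10.65, 10.90, 11.49 and 10.42 in iPGC-1β/APCmin, against 10.19, 10.20, 10.43, 10.20, 9.70 and 10.26 in FVBN/APCmin. Only array 12 of iPGC-1β/APCmin lay within the range of the other group. The difference was 1.04 (SE 0.26), or 2.06-fold, with a limma adjusted p of 0.0454 and an exact two-sided permutation p of 0.00433. Leaving out 1 array at a time gave Etfdh differences of 0.88 to 1.20, and 4 of the 12 fits passed. It did not pass without array 8, 10 or 11 of iPGC-1β/APCmin (limma adjusted p 0.0591, 0.0707 and 0.093) or without any 1 of arrays 1 to 5 of FVBN/APCmin (0.0803 to 0.102), nor without background correction (0.0503), in the authors' normalized table (0.0504), without a filter on dim probes (0.0644) or with a term for the lymphocyte markers (0.204). A further Etfdh probe differed by 0.88. Etfa and Etfb encode the subunits of the electron transfer flavoprotein itself. Etfa had 13.22 to 14.07 in iPGC-1β/APCmin, against 12.72 to 13.41 in FVBN/APCmin, and differed by 0.60 (SE 0.18, limma adjusted p 0.0714), while its 2 further probes differed by 0.67 and 0.76. Etfb had 11.34 to 13.21 in iPGC-1β/APCmin, against 11.25 to 11.98 in FVBN/APCmin, and differed by 0.63 (SE 0.27, limma adjusted p 0.176). The lowest Etfb value of iPGC-1β/APCmin was that of array 7, and without arrays 6 and 7 the difference was 0.78 with a limma adjusted p of 0.0358. With a term for the lymphocyte markers it was 0.31 (adjusted p 0.853).

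Of the enzymes that take the chain from hydration to thiolysis, Echs1 rose. Echs1, the short-chain enoyl-CoA hydratase, had 11.56, 12.09, 11.44, 11.80, 12.24 and 11.81 in iPGC-1β/APCmin, against 11.05, 11.24, 10.88, 11.20, 11.01 and 11.03 in FVBN/APCmin. Every iPGC-1β/APCmin array lay above every FVBN/APCmin array. The difference was 0.75 (SE 0.16), or 1.69-fold, with a limma adjusted p of 0.0225 and an exact two-sided permutation p of 0.00216, the smallest that 924 relabelings of the arrays can give. Without array 1, 3 or 5 of FVBN/APCmin the limma adjusted p of Echs1 was 0.0608, 0.0645 and 0.0597. Hadhb, the thiolase subunit of the trifunctional protein that works on long chains, had 11.51 to 12.37 in iPGC-1β/APCmin, against 11.24 to 11.69 in FVBN/APCmin. Hadhb differed by 0.56 (SE 0.17, limma adjusted p 0.0723). Hadha, which encodes the other subunit, was not analysed here. Hadh, the dehydrogenase for shorter chains, and Acaa2, the thiolase for shorter chains, differed by 0.14 and 0.09 (limma adjusted p 0.815 and 0.817).

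The auxiliary mitochondrial enzymes did not pass. Eci1, the isomerase that moves the double bond of unsaturated fatty acids, had 9.54, 9.61, 9.40, 10.51, 10.86 and 10.37 in iPGC-1β/APCmin, against 10.41, 11.03, 10.14, 10.65, 10.53 and 10.25 in FVBN/APCmin. The values on arrays 7, 8 and 9 lay below every FVBN/APCmin array and those on arrays 10, 11 and 12 among them. The difference was -0.45 (SE 0.26, limma adjusted p 0.318, 95% interval -1.01 to 0.11), with a sign opposite to that of Echs1 and Acadvl. Decr1, the reductase for unsaturated chains, and Acot2, a thioesterase that releases the fatty acid from its CoA, differed by 0.15 and 0.25 (adjusted p 0.782 and 0.517).

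Ketone body use showed higher values for each of its 3 enzymes, and Bdh1 rose. Bdh1 oxidises β-hydroxybutyrate to acetoacetate in the inner membrane. It had 12.05, 12.18, 11.15, 11.73, 12.30 and 11.51 in iPGC-1β/APCmin, against 10.39, 10.92, 10.50, 10.90, 10.62 and 10.40 in FVBN/APCmin, with no overlap between the groups. The difference was 1.20 (SE 0.20), or 2.30-fold, with a limma adjusted p of 0.00848 and an exact two-sided permutation p of 0.00216. Oxct1, the CoA transferase that activates acetoacetate, had 11.79 to 13.64 in iPGC-1β/APCmin, against 11.27 to 12.04 in FVBN/APCmin, and differed by 0.80 (SE 0.26, limma adjusted p 0.0896). Acat1, the mitochondrial thiolase that splits acetoacetyl-CoA, had 5.55 to 6.99 in iPGC-1β/APCmin, against 4.86 to 5.40 in FVBN/APCmin. The Acat1 groups did not overlap, and the difference was 0.86 (SE 0.24, limma adjusted p 0.0619). Its probe was dim, detected on 6 of 6 iPGC-1β/APCmin arrays and on 4 of 6 FVBN/APCmin arrays, so the background limits the lower values. The Acat1 difference was 0.52 with a larger offset of 50 in the background step, and 0.28 both without background correction and in the authors' normalized table (limma adjusted p 0.0769, 0.0935 and 0.0948). Groups without overlap, all higher in iPGC-1β/APCmin, were thus found for 3 of the 47 genes, Echs1, Bdh1 and Acat1. Over all genes tested the groups did not overlap for 212 higher (1.93%) and 97 lower (0.884%).

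**Figure D2:**
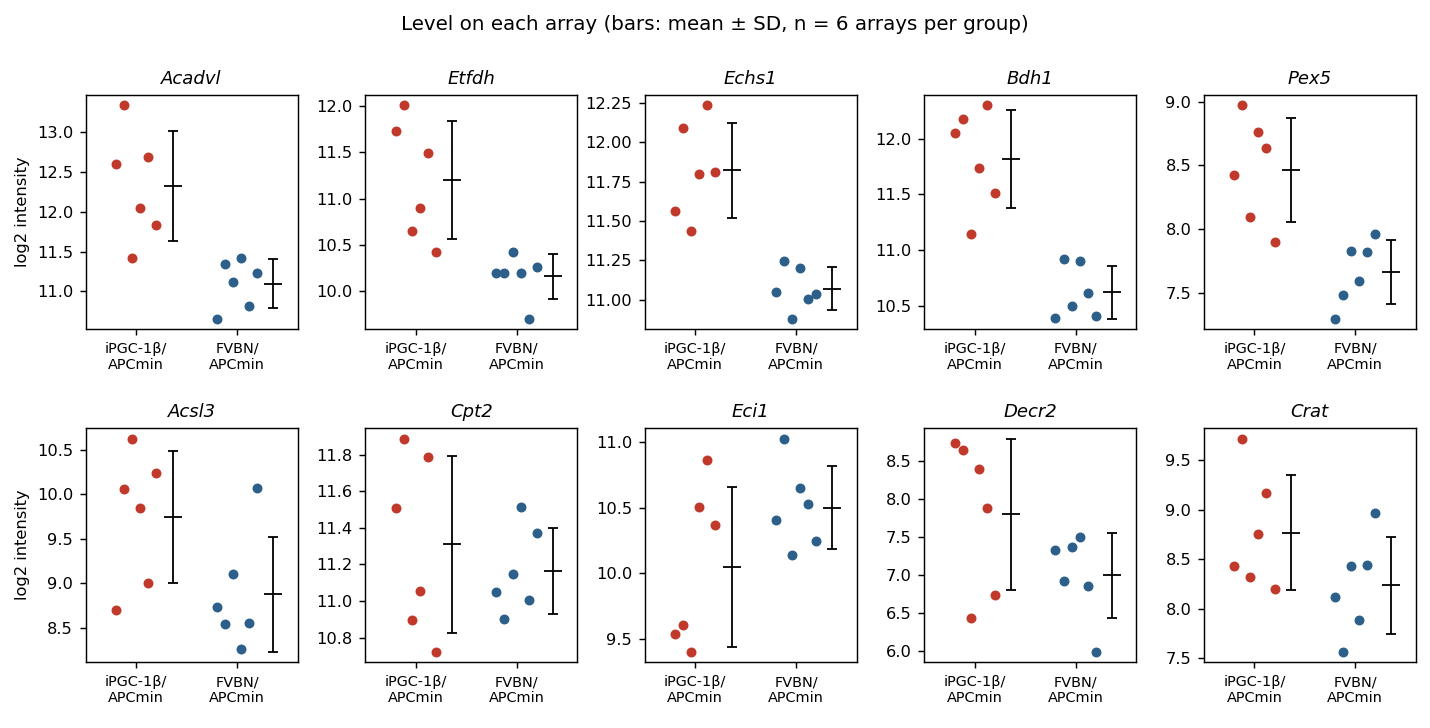
Log2 intensity of 10 genes on each of the 6 arrays of iPGC-1β/APCmin (red) and of FVBN/APCmin (blue), with the mean and SD of each group beside the points. The groups do not overlap for Echs1 and Bdh1, and for Cpt2, Decr2 and Crat the red points overlap the blue ones widely.

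Of the 10 peroxisomal enzymes tested, 6 were higher and 4 lower, and 0 passed limma's adjusted threshold or an unadjusted p of 0.05. Decr2, the peroxisomal reductase for unsaturated chains, had 8.74, 8.65, 6.43, 8.40, 7.89 and 6.73 in iPGC-1β/APCmin, against 7.33, 6.92, 7.38, 7.50, 6.85 and 5.99 in FVBN/APCmin. Arrays 7, 8, 10 and 11 lay above every FVBN/APCmin array and arrays 9 and 12 above array 6 alone, with a difference of 0.81 (SE 0.42, limma adjusted p 0.267). Acaa1b, a peroxisomal thiolase, had 6.55, 7.90, 6.09, 6.16, 8.78 and 7.78 in iPGC-1β/APCmin, against 8.31, 7.64, 8.89, 8.56, 6.76 and 7.96 in FVBN/APCmin. Its difference was -0.81 (SE 0.48, limma adjusted p 0.335, 95% interval -1.84 to 0.22), and its SD was the largest of the 47 genes in each group, 1.10 in iPGC-1β/APCmin and 0.76 in FVBN/APCmin.

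The bifunctional proteins that hydrate and dehydrogenate the chain, Hsd17b4 and Ehhadh, differed by 0.13 and 0.05 (limma adjusted p 0.747 and 0.929). Acox3, an oxidase of branched chains, differed by 0.42 (adjusted p 0.566), and the thiolase Acaa1a by -0.24 (adjusted p 0.633). Scp2, which encodes a thiolase and a sterol carrier, differed by -0.20 (adjusted p 0.633) on the probe used and by 0.56, 0.15 and -0.22 on its 3 other probes, so that it has no settled direction. Enzymes placed in both organelles differed by -0.04 to 0.53. Crat, which moves short acyl groups between CoA and carnitine, had 8.43, 9.72, 8.33, 8.76, 9.17 and 8.20 in iPGC-1β/APCmin, against 8.12, 7.57, 8.44, 7.89, 8.44 and 8.97 in FVBN/APCmin. Its groups overlapped, with a difference of 0.53 (SE 0.29, limma adjusted p 0.294). Eci2, an isomerase, differed by 0.25 and Ech1, a dienoyl-CoA isomerase, by -0.04 (adjusted p 0.406 and 0.929).

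Of the 13 peroxins tested, 9 were higher and 4 lower, with differences from -0.15 to 0.80, and 0 passed the limma threshold (1 at an unadjusted p below 0.05). Pex5, the receptor that carries most matrix enzymes into peroxisomes, had 8.42, 8.97, 8.09, 8.76, 8.63 and 7.90 in iPGC-1β/APCmin, against 7.30, 7.48, 7.83, 7.59, 7.82 and 7.96 in FVBN/APCmin. Array 12 of iPGC-1β/APCmin lay below array 6 of FVBN/APCmin, and every other iPGC-1β/APCmin array lay above all of FVBN/APCmin. The difference was 0.80 (SE 0.21), or 1.74-fold, with an exact two-sided permutation p of 0.00433 and a limma adjusted p of 0.0516, just outside the threshold. Its 2 further probes differed by 0.64 and 0.57, and without arrays 6 and 7 the difference was 0.87 with a limma adjusted p of 0.0213.

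The partners of Pex5 showed smaller values. Pex14 and Pex13, the docking proteins of the import pore, differed by 0.28 and 0.13 (limma adjusted p 0.27 and 0.751), with Pex13 detected on 6 of 12 arrays. Pex7, the second import receptor, differed by 0.23 (adjusted p 0.433) and Pex2, a ubiquitin ligase subunit, by 0.23 (adjusted p 0.402). Pex6 and Pex26, which recycle Pex5, differed by -0.15 and 0.28 (adjusted p 0.774 and 0.579). Among the membrane assembly factors, Pex19, Pex16 and Pex3 differed by 0.32, 0.36 and -0.01 (adjusted p 0.286, 0.357 and 0.969). Pex11a and Pex11c, which belong to a family that acts in peroxisome division, differed by 0.05 and -0.04 (adjusted p 0.92 and 0.952).

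The 7 genes on the array without a kept probe included Cpt1a, Pex10 and Pex5l, detected on 1 of 12 arrays each, and Crot, Phyh and Amacr, detected on 0. The member nearest the detection threshold among those kept was Pex13, detected on 6, with levels of 4.89 to 5.69 in iPGC-1β/APCmin and 4.70 to 5.84 in FVBN/APCmin. No difference between the groups was measured for these 7 genes or for Hadha.

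Set side by side, the 3 ketone body enzymes had a median difference of 0.86, the 17 mitochondrial genes 0.25, the 13 peroxins 0.23, the 4 acyl-CoA synthetases 0.20 and the 10 peroxisomal genes 0.09. The threshold was passed by 1 of 3 ketone body enzymes, by 3 of 17 mitochondrial genes and by 0 of the other 27 genes. Of the 17 mitochondrial genes 14 were higher and 3 lower. Their order moved with the processing and with single arrays. The median of the mitochondrial genes was 0.14 to 0.16, below the 0.15 to 0.21 of the peroxins, with an offset of 50, without background correction and in the authors' table. The peroxisomal median was 0.25 when arrays were scaled to a common 75th percentile, against a mitochondrial median of 0.30 there, and leaving out 1 array at a time it spanned 0.0023 (without array 8 of iPGC-1β/APCmin) to 0.22 (without array 9). The ketone body median of 0.86 is the Acat1 value, and it was 0.78 without background correction. These medians describe the classes, and the differences between classes were not tested.

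The class levels show how the arrays of a group varied together. Each is the mean of the class after every gene was centred over the 12 arrays. The ketone level was 0.45, 1.06, 0.02, 0.22, 0.66 and 0.45 on arrays 7 to 12 of iPGC-1β/APCmin, against -0.41, -0.45, -0.63, -0.34, -0.44 and -0.59 on arrays 1 to 6 of FVBN/APCmin, without overlap. The mitochondrial level was 0.21, 0.57, -0.33, 0.15, 0.51 and -0.10 in iPGC-1β/APCmin, against -0.23, -0.11, -0.22, -0.03, -0.23 and -0.18 in FVBN/APCmin. Arrays 7, 8, 10 and 11 lay above all FVBN/APCmin arrays, array 12 among them and array 9 below them. The peroxisomal level was 0.19, 0.72, -0.67, -0.16, 0.52 and -0.32 in iPGC-1β/APCmin, against -0.04, -0.20, 0.22, 0.06, -0.30 and -0.01 in FVBN/APCmin, so its iPGC-1β/APCmin arrays reached further both up and down than the others. The mitochondrial level minus the peroxisomal level was -0.15 to 0.34 in iPGC-1β/APCmin and -0.44 to 0.09 in FVBN/APCmin, and the groups overlapped.

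**Figure D3:**
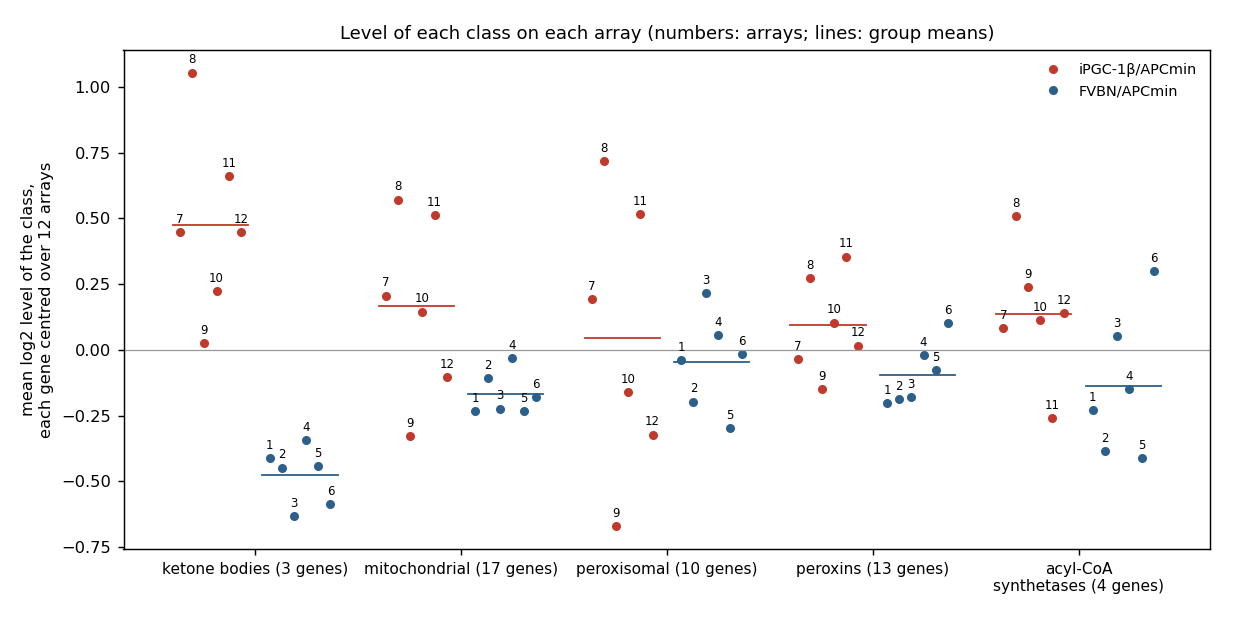
Mean centred log2 level of 5 classes of genes on each array, iPGC-1β/APCmin in red and FVBN/APCmin in blue, with lines at the group means and the array numbers above the points. Only the ketone body class has no overlap (0.02 to 1.06 against -0.63 to -0.34), and arrays 8 and 11 lie high and array 9 low within iPGC-1β/APCmin in the mitochondrial and peroxisomal classes.

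The spread was wider in iPGC-1β/APCmin. Within that group, array 8 was the highest for 23 and array 11 for 12 of the 47 genes, and array 9 was the lowest for 22 and array 12 for 14. The SD was larger in iPGC-1β/APCmin than in FVBN/APCmin for 40 of the 47 genes (85.1%) and for 8860 of all 10967 genes (80.8%), so the share was near that of all genes. The median SD of the 47 genes was 0.486 in iPGC-1β/APCmin and 0.256 in FVBN/APCmin, and over all genes it was 0.475 in iPGC-1β/APCmin and 0.314 in FVBN/APCmin.

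Marker genes of enterocytes varied between the same arrays. The mean centred level of 8 enterocyte genes was -0.03, 0.74, -1.08, -0.24, 0.02 and -0.57 on arrays 7 to 12 of iPGC-1β/APCmin, against 0.16, -0.08, 0.29, 0.22, 0.10 and 0.47 on arrays 1 to 6 of FVBN/APCmin. It was highest on array 8 and lowest on array 9, as the mitochondrial and peroxisomal levels were. Of the 8 genes 3 were higher and 5 lower in iPGC-1β/APCmin, 0 past the limma threshold and 3 at an unadjusted p below 0.05, with a median of -0.24. With a term for the enterocyte level in the fit, 9 of the 47 genes and 629 of all 10967 passed the threshold. The 9 genes were all higher: Acadvl (1.62), Etfdh (1.38), Echs1 (0.86), Bdh1 (1.40), Etfa (0.71), Hadhb (0.77), Oxct1 (1.05), Crat (0.89) and Pex5 (1.02).

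**Figure D4:**
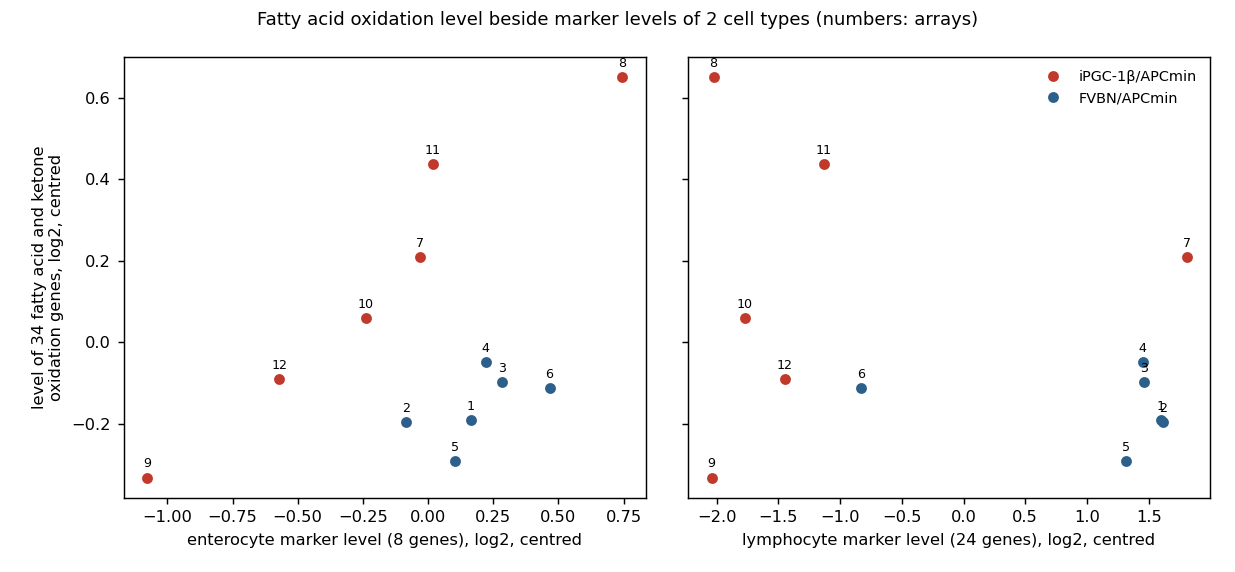
Mean centred log2 level of the 34 genes tested other than peroxins against that of 8 enterocyte genes (left) and the lymphocyte level (right). The lymphocyte level averages the level of 14 T and NK cell genes and that of 10 B and plasma cell genes. There is 1 numbered point per array, iPGC-1β/APCmin in red and FVBN/APCmin in blue. Array 8 is highest and array 9 lowest on both axes of the left panel, and on the right panel array 7 lies with 5 of the blue points and array 6 towards the other red ones.

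Lymphocyte markers had larger median differences than any gene described above. All 14 T and NK cell genes tested were lower in iPGC-1β/APCmin, 5 of them past the threshold, with a median of -2.06, and all 10 B and plasma cell genes were lower, 0 past it and 9 at an unadjusted p below 0.05, with a median of -2.93. The T and NK cell level spanned -1.79 to 1.18 in iPGC-1β/APCmin and -0.53 to 1.41 in FVBN/APCmin, and the B and plasma cell level -2.32 to 2.44 in iPGC-1β/APCmin and -1.12 to 1.91 in FVBN/APCmin. The lymphocyte level, the average of the T and NK cell level and the B and plasma cell level, was added as a term to the fit. It differed by -2.21 between the groups, so this fit cannot separate it from genotype. The part of lymphocytes in the results was thus not tested. That average was below 0 on 5 of 6 iPGC-1β/APCmin arrays and on 1 of 6 FVBN/APCmin arrays. In that fit 0 of the 47 genes and 5 of all 10967 passed (11 of the 47 and 1166 of all at an unadjusted p below 0.05), and the differences were 1.33 for Acadvl, 1.28 for Etfdh, 0.68 for Echs1 and 1.44 for Bdh1 (limma adjusted p 0.231, 0.204, 0.295 and 0.0851). The SE of Bdh1 was 0.28 with the term, against 0.20 without it. Without arrays 6 and 7, 9 of the 47 genes and 2184 of all 10967 passed, about the same share. The 9 genes were all higher: Acadvl (1.19), Etfdh (0.95), Echs1 (0.80), Bdh1 (1.11), Acsl3 (1.32), Etfb (0.78), Acat1 (0.97), Pex26 (0.62) and Pex5 (0.87). With the term for the lymphocyte markers Pex26 differed by -0.47, of opposite sign.

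Markers of other cells were also measured, each list with 0 genes past the limma threshold and 0 to 3 at an unadjusted p below 0.05. Their median differences were -0.25 for 7 epithelial genes, -0.10 for 8 smooth muscle genes, -0.50 for 4 striated muscle genes, -0.20 for 4 adipocyte genes, 0.21 for 6 fibroblast genes, 0.62 for 5 endothelial genes, -0.37 for 5 macrophage genes, 0.13 for 2 genes of enteric neurons and glia and 2.17 for 2 red blood cell genes. The part of these cells in the results was not tested. With the smooth muscle level as a covariate, 8 of the 47 genes and 1122 of all 10967 passed.

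Further genes of the same pathways were read by list. Of 25 further genes of mitochondrial fatty acid, ketone and branched-chain metabolism 20 were tested, 14 higher and 6 lower, with a median of 0.12, and 1 rose: Hibadh, a dehydrogenase of valine breakdown, by 0.65 (SE 0.17, limma adjusted p 0.0489). The differences of these 20 genes ran from -0.58 to 1.51, and 7 had an unadjusted p below 0.05. Of 38 further peroxisomal genes 30 were tested, 16 higher and 14 lower, 0 past the limma threshold and 8 at an unadjusted p below 0.05, with a median of 0.07. The differences of these 30 genes ran from -1.02 to 1.43. Cat encodes the catalase that breaks down the hydrogen peroxide of peroxisomal oxidation. It differed by -0.58 (limma adjusted p 0.284) and was not among the genes at an unadjusted p below 0.05.

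Of 18 genes of PPAR signalling and fatty acid uptake 8 were tested, 2 higher and 6 lower, and 2 fell. These were Angptl4, a secreted inhibitor of lipoprotein lipase, by 2.38 (adjusted p 0.00511) and Slc27a4, a fatty acid transport protein, by 1.43 (adjusted p 0.0462), both with limma. Slc27a1, of the same gene family as Slc27a4 but not on this list, rose by the same threshold. Of 9 genes of PGC-1 coactivators and their partners 6 were tested, 3 higher and 3 lower, with a median of -0.06. Of these, 0 passed limma's threshold (3 at an unadjusted p below 0.05).  Esrra, which encodes an estrogen-related receptor, differed by 0.61 (SE 0.23, limma adjusted p 0.135). Nrf1 and Gabpa, of the same list, differed by -0.43 and 0.45 (limma adjusted p 0.173 and 0.171).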

How the data were processed

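Per the file headers, the deposited non-normalized table gives each of 25697 probes a signal intensity and a detection p-value on each of 12 arrays. A further deposited table holds intensity that the authors had normalized, with array medians of 157.8 to 158.1. The submitters' processing notes name GenomeStudio without a version.

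The analysis used limma 3.58.1 in R 4.3.3. Background was corrected with neqc (offset 16, controls inferred from the detection p-values), followed by quantile normalization and log2. Kept were 14827 probes detected (p below 0.05) on 4 or more arrays, and where a symbol had several, the one of highest mean. Of the 33 other kept probes of the genes described, 27 had a difference of the same sign. Symbols of 31 probes that a spreadsheet had turned into dates were replaced by their probe identifiers. Older symbols were matched by hand (Dci for Eci1 and Peci for Eci2, and for its promoter Pex11c was looked up as Pex11g).

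The genotypes were compared with lmFit and eBayes with an intensity trend, Benjamini-Hochberg adjusted over all 10967 genes, and single genes also with an exact permutation test over 924 relabelings. Given in full were all genes past the threshold and the gene of smallest p in each role. Acaa1b and the other genes described were chosen after their values were seen. The members and lists were chosen with earlier results of these data known. Alternatives were another offset, no background correction, cyclic loess, a common 75th percentile, the authors' table, 2 other filters, the mean of a gene's probes, no trend, array quality weights, 3 marker levels as covariates, a fold minimum of 1.5 and left-out arrays. Precision is limited by the number of arrays. Promoters were read from RefSeq on GRCm38.p6. A few genes of the lists are counted but not reported here.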

Additional observations from a re-analysis of the deposited data

Results flagged for a closer look

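The 47 genes and the 5 class levels were checked in each group of 6 arrays, 104 checks in all, for an array far from the rest by Dixon's 95% critical value, and 6 genes had one. Chance flags about 5% of such checks. Acsl1 had a log2 level of 8.69 on array 8 of iPGC-1β/APCmin and 7.24 to 7.76 on the other 5. Scp2 had 11.6 on array 9 of iPGC-1β/APCmin and 12.61 to 13.09 on the others. Pex26 had 6.33 on array 7 of iPGC-1β/APCmin and 7.21 to 7.65 on the others. Pex6 had 9.86 on array 12 of iPGC-1β/APCmin and 11.01 to 11.60 on the others. Etfdh had 9.70 on array 5 of FVBN/APCmin and 10.19 to 10.43 on the others. Pex11c had 7.72 on array 3 of FVBN/APCmin and 8.38 to 8.67 on the others. The 6 values came from 4 arrays of iPGC-1β/APCmin and 2 of FVBN/APCmin, a different array for each gene.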

How the results depend on the processing

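Among the 47 genes, 28 kept the sign of their difference in every alternative run (26 higher, and Acaa1b and Eci1 lower), and 34 passed the threshold in no setting. Of the 4 genes that rose, Bdh1 passed in 25 of 26 alternatives, Echs1 in 21, Acadvl in 18 and Etfdh in 14. The number of these genes past the threshold was 3 to 6 under the other backgrounds, normalizations, filters and probe rules. It was 11 with array quality weights, 0 with the lymphocyte level as covariate, 9 with the enterocyte level, 8 with the smooth muscle level and 9 without arrays 6 and 7. Leaving out 1 array at a time gave 1 to 8. Bdh1 was the 1 gene left without array 1, 3 or 5 of FVBN/APCmin, where 138, 129 and 145 of all genes passed. Bdh1 and Echs1 were the 2 left without array 2 or 4 of FVBN/APCmin or array 10 or 11 of iPGC-1β/APCmin. In those fits 157, 172, 190 and 169 of all genes passed, in the same order. Without array 7 of iPGC-1β/APCmin 8 of the 47 genes and 1821 of all genes passed, about the same share. Over all genes the counts past the threshold were 200 without a filter, 2403 with array weights, 5, 629 and 1122 with the lymphocyte, enterocyte and smooth muscle covariates, 2184 without arrays 6 and 7 and 129 to 1821 leaving out 1 array. The cause of these changes was not tested.

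The median of the acyl-CoA synthetases was -0.12 with the lymphocyte covariate, and Acsl3 turned to -0.16 and Pex26 to -0.47 there. Scp2 turned to 0.051 with a common 75th percentile, to 0.073 with the mean of its probes and to 0.066 with the enterocyte covariate. Acadm turned to -0.036 with array weights and -0.022 without arrays 6 and 7, and ranged from -0.060 to 0.25 leaving out 1 array. Ehhadh turned to -0.055 with array weights and ranged from -0.12 to 0.22 leaving out 1 array. The shift of all genes stayed between -0.03 and 0.04 in every setting. No paired analysis was possible because the groups share no replicate number. Dim probes such as those of Acat1 and Pex13 lie near the background, which limits their differences, and neither had a value under the stricter filter.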
